A study of Mus musculus with 44 samples.

Results

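Acid secretion by the gastric corpus is set by receptors for histamine, acetylcholine, somatostatin, cholecystokinin and PACAP. The mRNA of 8 such receptor genes (Hrh2, Hrh1, Chrm1, Chrm3, Sstr1, Sstr2, Cckar and Adcyap1r1) was examined, out of 31484 genes in the deposited data. They were chosen by name, with earlier results of these data known. The level of a gene was the sum of its transcripts in the GENCODE vM21 annotation of the mouse genome build GRCm38. Gastric corpus mucosa was taken from female BalbC mice aged 13 months, which were wild type (WT) or homozygous knockout (KO) for the H+/K+ATPase beta subunit gene Atp4b. The knockout is present in every cell and the mice cannot secrete acid. Mice had been given netazepide (NTZ, also YF476), an antagonist of the gastrin receptor CCKBR, or only its vehicle polyethylene glycol (PEG). The libraries, each from bulk tissue, numbered 13 KO/PEG, 11 KO/NTZ, 11 WT/PEG and 9 WT/NTZ. The labels number the animals, and 2 numbers occur on more than one library, so p-values measure the spread between libraries.

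In the corpus, gastrin reaches CCKBR on enterochromaffin-like (ECL) cells, which release histamine. Histamine acts on the H2 receptor (gene Hrh2) of the parietal cell and raises cAMP, and acetylcholine from vagal nerves acts on the muscarinic M3 receptor (Chrm3) and raises calcium. Somatostatin from D cells restrains ECL and parietal cells, mainly through SSTR2. Cholecystokinin acts on CCKAR (Cckar) of D cells and chief cells, and PACAP acts on its receptor PAC1 (Adcyap1r1) of ECL cells. The H1 receptor (Hrh1), the muscarinic M1 receptor (Chrm1) and SSTR1 (Sstr1) bind the same ligands as the better known acid receptors of their families.

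The genes lie on 6 chromosomes. In GRCm38, Hrh2 (ENSMUSG00000034987) is at chr13:54192129-54236180 on the plus strand and Chrm3 (ENSMUSG00000046159) at chr13:9875486-10360847 on the minus strand. Hrh1 (ENSMUSG00000053004) is at chr6:114397936-114483296 and Adcyap1r1 (ENSMUSG00000029778) at chr6:55451978-55501451, both on the plus strand. Chrm1 (ENSMUSG00000032773) is at chr19:8663789-8683587, Sstr1 (ENSMUSG00000035431) at chr12:58211772-58214444 and Sstr2 (ENSMUSG00000047904) at chr11:113619342-113626028, all on the plus strand. Cckar (ENSMUSG00000029193) is at chr5:53697776-53707705 on the minus strand. Upstream sequence from RefSeq (GRCm38.p6) was at hand for 5 of the 8 genes, and not for Chrm1, Sstr1 and Cckar.

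The 250 bases before the RefSeq start are shown for 3 receptors whose mRNA differed between genotypes, Hrh2 and Sstr2 being lower and Adcyap1r1 higher in KO mice. The windows are chr13:54191879-54192128 for Hrh2, chr11:113619077-113619326 for Sstr2 and chr6:55451728-55451977 for Adcyap1r1, all on the plus strand and outside the annotated exons of these genes. Chrm3, the other receptor that differed and had a window (chr13:10360804-10361053, minus strand), is not printed because its window reaches into its annotated transcript. Capitals mark matches to a GC box or a cAMP response element.
Hrh2: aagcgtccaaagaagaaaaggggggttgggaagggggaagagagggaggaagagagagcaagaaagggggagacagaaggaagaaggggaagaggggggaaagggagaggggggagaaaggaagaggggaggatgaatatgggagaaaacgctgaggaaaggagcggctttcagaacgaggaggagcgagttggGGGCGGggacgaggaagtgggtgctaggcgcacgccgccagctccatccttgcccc
Sstr2: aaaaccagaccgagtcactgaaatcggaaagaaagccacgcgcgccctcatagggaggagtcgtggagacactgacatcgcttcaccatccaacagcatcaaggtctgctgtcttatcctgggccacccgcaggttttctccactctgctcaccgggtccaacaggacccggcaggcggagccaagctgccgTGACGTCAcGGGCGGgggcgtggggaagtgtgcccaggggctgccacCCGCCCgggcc
Adcyap1r1: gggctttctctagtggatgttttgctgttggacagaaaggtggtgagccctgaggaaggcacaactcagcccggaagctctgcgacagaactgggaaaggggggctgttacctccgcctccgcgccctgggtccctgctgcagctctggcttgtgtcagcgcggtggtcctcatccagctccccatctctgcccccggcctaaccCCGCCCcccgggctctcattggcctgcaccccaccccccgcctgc
The motifs searched on both strands were the GC box GGGCGG, the cAMP response element TGACGTCA, the TATA box TATAAA and the motif AAGGTCA of estrogen-related receptors. They overlapped nowhere in these windows. The 3 printed windows held a GC box and that of Chrm3 held none of the motifs, so that 3 of 4 held a GC box, which 32.7% of the 32851 RefSeq windows of the same length also held. Its distance before the start was 56 bases in Hrh2, 45 in Adcyap1r1, and 49 and 11 in Sstr2. Sstr2 alone of the 4 held a full cAMP response element, 58 bases before the start, which was found in 1.55% of all windows. No TATA box (12.4% of all windows) or motif of estrogen-related receptors (4.08%) was present in these letters. The GC content was 59.6% in Hrh2, 63.6% in Sstr2 and 65.6% in Adcyap1r1, against a median of 52.4% over all windows. A match of letters shows neither binding nor use of the site.

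The total estimated count per library was between 6065084 and 21945124. A count of 3, taken as the floor of detection and covering counting error only, was worth between 0.137 and 0.495 CPM (counts scaled to the library total) in a library. Levels below are CPM on library sizes scaled by the TMM method, unless given as TPM, which divide by transcript length and allow genes to be compared. The corpus markers Atp4a, Gif and Pgc were present in every library. The targeted gene Atp4b was at 3920 ± 720 CPM (SD, n = 11) in WT/PEG and 6.79 ± 3.87 (n = 13) in KO/PEG, with 12.5 ± 11.4 (n = 11) in KO/NTZ. Mitochondrial transcripts took 14.4% of the counts of the library labelled KO_46_KO_PEG and at most 11.7% elsewhere. Markers of forestomach squamous epithelium summed to between 0.353 and 291 CPM in WT/PEG (median 0.767) and between 0.410 and 1907 CPM in WT/NTZ (median 393). Their sum was between 1.39 and 303 CPM in KO/PEG (median 20.2) and between 20.1 and 398 CPM in KO/NTZ (median 87.0).

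In normal mucosa the receptors differed widely in level. In WT/PEG, Cckar had the highest mean at 36.5 ± 5.85 TPM (SD, n = 11), followed by Sstr2 at 9.57 ± 1.01, Hrh2 at 8.12 ± 1.04 and Chrm3 at 5.21 ± 0.72. Chrm1 followed at 1.16 ± 0.32 TPM and Adcyap1r1 at 0.758 ± 0.136. Hrh1 at 0.155 ± 0.098 TPM and Sstr1 at 0.147 ± 0.086 were the lowest. The ranges of neighbours did not overlap between Cckar and Sstr2, Hrh2 and Chrm3, Chrm3 and Chrm1, or Adcyap1r1 and Hrh1. Those of Sstr2 and Hrh2 overlapped, although Sstr2 was above Hrh2 in 10 of 11 libraries, and those of Chrm1 and Adcyap1r1 overlapped, although Chrm1 was above in 11 of 11. Hrh1 and Sstr1 did not differ beyond their spread, Hrh1 being above in 6 of 11 libraries. The order of the means was the same in WT/NTZ.

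The order was different in KO mice. In KO/PEG, Cckar still led at 13.0 ± 8.57 TPM (SD, n = 13), but Chrm1 was next at 5.26 ± 2.08, ahead of Sstr2 at 4.23 ± 2.22 and Chrm3 at 4.22 ± 1.92. Hrh2 had dropped to the sixth place at 1.12 ± 0.61 TPM, behind Adcyap1r1 at 1.69 ± 1.002. In KO/NTZ the highest mean was that of Chrm1 at 5.74 ± 1.07 TPM (n = 11), with Cckar at 5.19 ± 4.42. These KO levels overlapped between all neighbours except Hrh2 and Hrh1 in KO/NTZ, and Chrm1 was above Cckar in only 8 of 11 KO/NTZ libraries. By mean TPM the muscarinic receptors changed places. The ratio of Chrm1 to Chrm3 in TPM lay between 0.141 and 0.329 in WT/PEG and was above 1 in 8 of 13 KO/PEG and 11 of 11 KO/NTZ libraries, with a median of 2.11 in the latter. Where the level was taken as CPM per kilobase of the longest transcript, Chrm1 took the fourth place in KO/PEG, behind Chrm3. Cckar then took the first place in KO/NTZ.

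**Figure D1:**
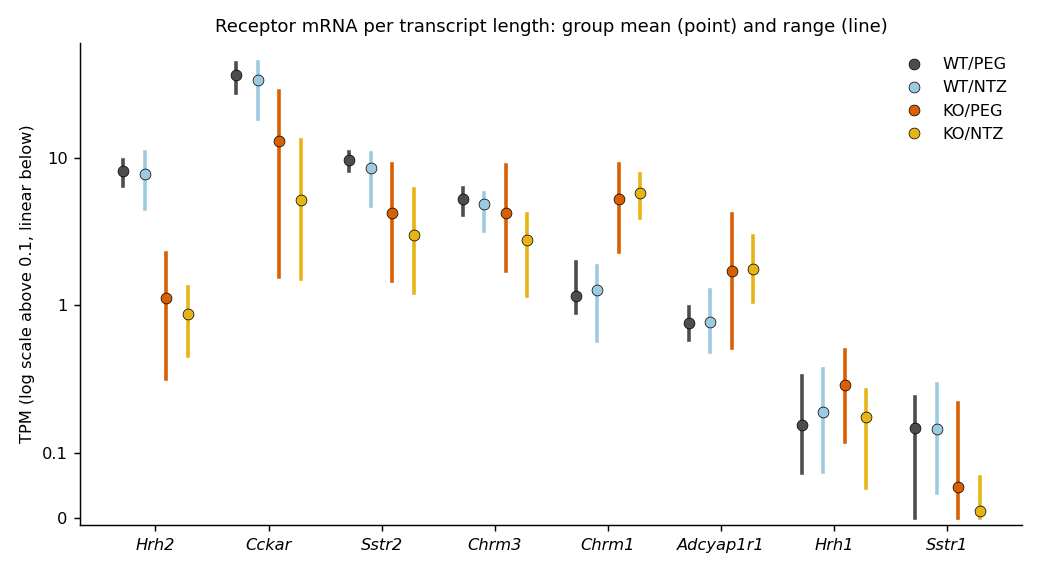
Mean TPM (point) and range over libraries (line) of the 8 receptors in the 4 groups, on an axis that is logarithmic above 0.1 and linear below. Cckar was highest in both WT groups, and Hrh2 fell below Chrm1 and Adcyap1r1 in both KO groups.

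The first comparison asked how loss of the proton pump beta subunit changed the receptors without drug. All 6 receptors that could be tested differed between KO/PEG and WT/PEG. Hrh2, Cckar, Sstr2 and Chrm3 were lower and Chrm1 and Adcyap1r1 were higher in KO/PEG. Such a call was common, since 74.0% of the 15336 genes tested passed at an adjusted p under 0.05, 37.2% higher and 36.8% lower, so the count of 6 is not particular to the receptors. How many of all genes had group ranges without overlap was not counted, so the overlaps given below are a description. The median log2 fold change of the 6 was -0.90, beside -0.01 over all genes tested. Adjusted p-values come from quasi-likelihood tests in edgeR, corrected over all genes tested by the Benjamini-Hochberg method, and the SE is that of the log2 fold change. In bulk tissue, fewer cells of a type and less mRNA per cell cannot be told apart. With the libraries scaled by total count alone the median of all genes moved from -0.01 to 0.29 and the share of calls that were higher from 50.2% to 71%. Under that scaling each of the 6 receptors kept its direction.

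Hrh2, which carries the histamine signal to the parietal cell, showed the largest difference of the 6. It ranged from 16.3 to 23.8 CPM in WT/PEG with a median of 20.8, and from 0.854 to 4.91 in KO/PEG with a median of 2.04. All 13 KO/PEG libraries were below all 11 WT/PEG libraries. The log2 fold change was -3.11 (SE 0.21, 95% interval -3.55 to -2.68), which is 8.66-fold lower, with an adjusted p of 7.76e-16. Hrh2 has a single annotated transcript, and each KO/PEG library held between 8 and 100 of its counts. Parietal cell markers fell with it, 13 of the 15 tested being lower and Car2, a carbonic anhydrase, higher. Their summed level was between 10644 and 15616 CPM in WT/PEG and between 4378 and 11310 in KO/PEG, with none at 0. Atp4a, the catalytic subunit of the proton pump, fell by 1.01 on the log2 scale (adjusted p = 1.36e-06). Over the 15 markers the median log2 fold change was -1.40, with values between -3.69 for Kcnj16 and 0.30 for Car2. The part of the marker change in the Hrh2 difference was not tested.

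Cckar, the receptor with the highest level in WT mucosa, ranged from 58.1 to 120 CPM in WT/PEG with a median of 93.7. In KO/PEG it ranged from 4.53 to 63.7 CPM with a median of 23.8, so that the groups overlapped in 2 of 13 KO/PEG libraries. The log2 fold change was -1.72 (SE 0.33, 95% interval -2.38 to -1.06), or 3.29-fold lower, with an adjusted p of 1.35e-05. The spread among KO/PEG libraries, an SD of 69.5% of the mean, was wide beside 19.2% in WT/PEG. Of the 6 chief cell markers tested, 5 were lower and Pga5, a pepsinogen gene, was higher. Their summed level was between 95793 and 242086 CPM in WT/PEG and between 2668 and 50531 in KO/PEG. Pgc, encoding pepsinogen C, fell by 3.94 on the log2 scale (adjusted p = 4.19e-11) and Gif, encoding intrinsic factor, fell by 2.09 (adjusted p = 0.00032). Whether Cckar changed with the number of these cells was not tested.

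Sstr2, the main somatostatin receptor of the corpus, ranged from 12.1 to 20.01 CPM in WT/PEG (median 16.8) and from 2.88 to 14.3 in KO/PEG (median 5.89). Of 13 KO/PEG libraries, 12 were below every WT/PEG library. The log2 fold change was -1.30 (SE 0.21, 95% interval -1.73 to -0.88, adjusted p = 8.34e-07), or 2.46-fold lower. Its ligand Sst fell by 1.02 on the log2 scale (SE 0.27, adjusted p = 0.00079). Of 4 D cell markers tested, Isl1 and Sst were lower and the other two did not pass.

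Chrm3, the acetylcholine receptor of the parietal cell, had the smallest difference. It ranged from 16.6 to 22.2 CPM in WT/PEG (median 18.6) and from 7.39 to 21.0 in KO/PEG (median 13.4), and 11 of 13 KO/PEG libraries were below all WT/PEG libraries. It fell by 0.49 on the log2 scale (SE 0.13, 95% interval -0.75 to -0.23, adjusted p = 0.0010), or 1.40-fold lower. It did not pass when libraries were scaled by total count alone (-0.17, adjusted p = 0.367), where the median gene stood at 0.29. Smooth muscle and enteric nerve cells also carry muscarinic receptors. Of their markers, 7 of 8 for smooth muscle and 11 of 11 for enteric neurons and glia were lower in KO/PEG. The summed smooth muscle markers were between 2674 and 4482 CPM in WT/PEG and between 1127 and 3777 in KO/PEG, and those of enteric neurons and glia between 43.9 and 66.3 and between 11.3 and 36.7. None of either list was at 0, and their part in the Chrm3 difference was not tested.

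Chrm1 was the receptor that rose most. It ranged from 3.33 to 6.47 CPM in WT/PEG (median 4.31) and from 7.17 to 28.7 in KO/PEG (median 18.7), with no overlap between the groups. On the log2 scale it rose by 2.00 (SE 0.21, 95% interval 1.59 to 2.42), or 4.01-fold higher, with an adjusted p of 4.64e-11. Markers of mucous neck cells and SPEM, a metaplasia that expresses spasmolytic polypeptide, rose in the same libraries. All 6 of them were higher, and their summed level was between 1811 and 2722 CPM in WT/PEG and between 7122 and 61597 in KO/PEG. Which cells held the Chrm1 mRNA was not tested.

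Adcyap1r1, the PACAP receptor of ECL cells, ranged from 3.08 to 4.82 CPM in WT/PEG (median 3.88) and from 2.87 to 15.1 in KO/PEG (median 8.33). In KO/PEG, 9 of 13 libraries were above all WT/PEG libraries and the 4 others lay between 2.87 and 3.58 CPM. It rose by 0.99 on the log2 scale (SE 0.21, 95% interval 0.55 to 1.42, adjusted p = 8.57e-05), or 1.98-fold higher. Of 7 markers of ECL and neuroendocrine cells, Chga, Cckbr, Chgb and Hdc were higher and the synaptic vesicle gene Syp was lower. Their summed level was between 494 and 991 CPM in WT/PEG and between 824 and 2536 in KO/PEG. In KO/NTZ the sum was between 590 and 938 CPM, where Adcyap1r1 had a median of 8.34. The part of these cells in the Adcyap1r1 difference was not tested. Adcyap1, the gene of its ligand PACAP, was not tested at a mean of 0.176 ± 0.144 CPM in WT/PEG and 0.0795 ± 0.0609 in KO/PEG.

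Hrh1 and Sstr1 were left out of the test by the filter on low counts. Hrh1 held between 2 and 12 counts per library in WT/PEG and between 4 and 22 in KO/PEG. Its mean was 0.609 ± 0.176 CPM (n = 13) in KO/PEG and 0.428 ± 0.184 (n = 11) in KO/NTZ, against 0.358 ± 0.213 (n = 11) in WT/PEG and 0.464 ± 0.215 (n = 9) in WT/NTZ. Sstr1 held 34 counts in all 11 WT/PEG libraries together and 23 in WT/NTZ, and was at 0 in 2 and 0 of these libraries. The 13 KO/PEG libraries held 17 of its counts and the 11 KO/NTZ libraries 3, with 7 and 9 libraries at 0. Without the filter, KO/PEG versus WT/PEG gave a log2 fold change of 0.77 for Hrh1 (adjusted p = 0.0196) and -1.69 for Sstr1 (adjusted p = 0.0078). These values rest on counts at or near the floor of detection.

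**Figure D2:**
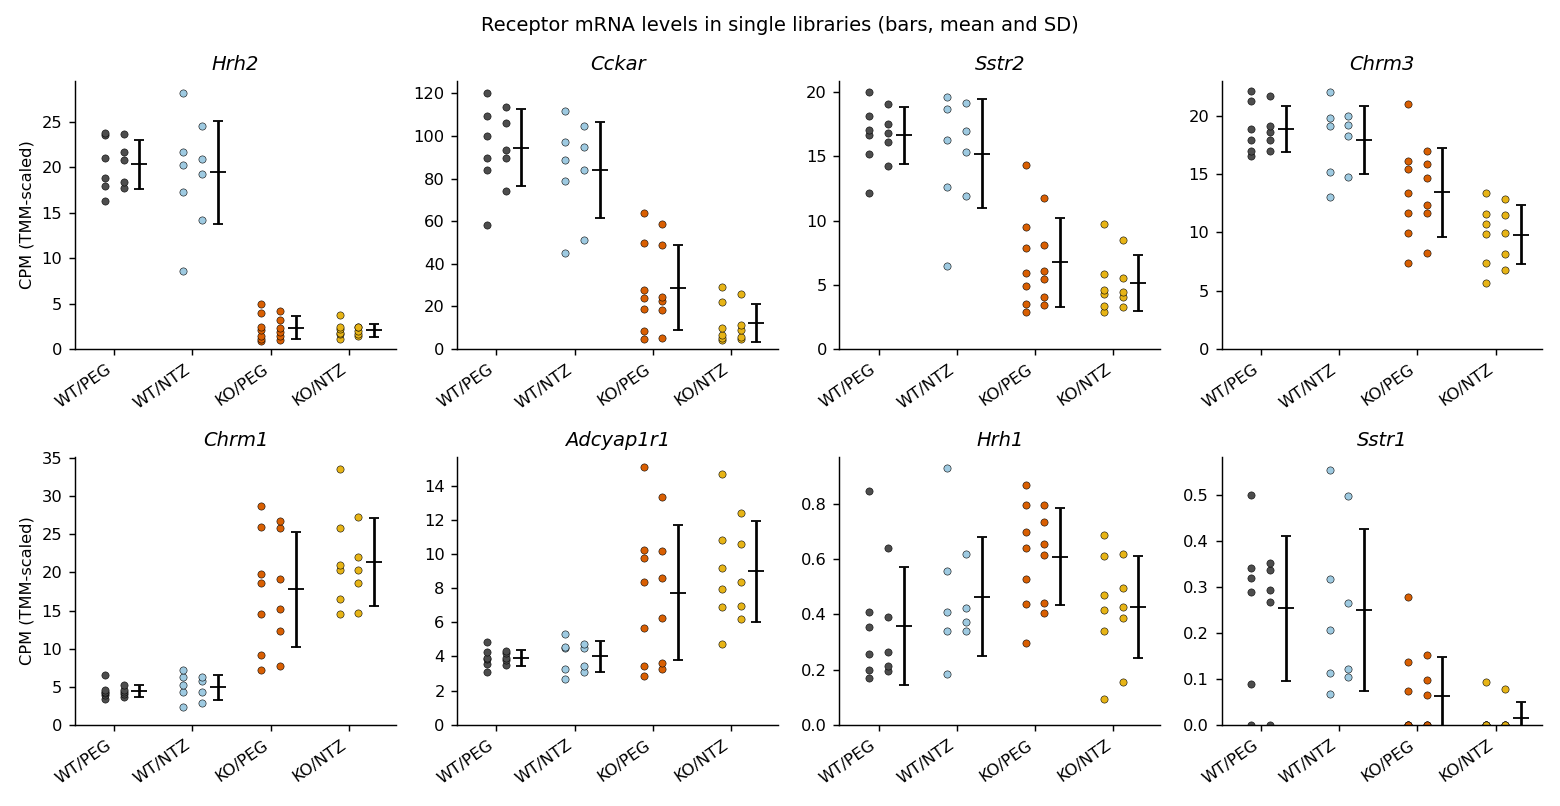
CPM of each receptor in the 44 libraries, with a panel for each gene and a vertical axis from 0. Points are libraries and bars give the mean and SD of the group. Hrh2 and Chrm1 did not overlap between KO/PEG and WT/PEG, while the other receptors did. The share of all genes without overlap was not counted.

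The same 6 receptors differed between genotypes under the drug. In KO/NTZ versus WT/NTZ, 6 of 6 passed, 2 higher and 4 lower, where 72.0% of all genes passed, 35.1% higher and 36.9% lower. Hrh2 ranged from 8.60 to 28.1 CPM in WT/NTZ (median 20.3) and from 1.07 to 3.74 in KO/NTZ (median 1.94), without overlap. The log2 fold changes were -3.24 for Hrh2 (SE 0.24, adjusted p = 1.57e-14) and 2.12 for Chrm1 (SE 0.23, adjusted p = 2.45e-10). Cckar fell by 2.77 (SE 0.37, adjusted p = 3.29e-08) and was between 45.1 and 112 CPM in WT/NTZ and between 4.21 and 28.9 in KO/NTZ, also without overlap. Sstr2 fell by 1.54 (SE 0.23), Chrm3 fell by 0.86 (SE 0.15) and Adcyap1r1 rose by 1.16 (SE 0.24), with adjusted p-values of 3.23e-07, 1.95e-06 and 3.89e-05. Under scaling by total count alone 60.7% of the calls were higher in place of 48.8%, the median of all genes stood at 0.13 in place of -0.04, and all 6 still passed.

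The next comparison asked what blocking the gastrin receptor did in KO mice. Cckar and Chrm3 were lower in KO/NTZ than in KO/PEG, and the 4 others tested did not pass. Of all genes 5.48% passed, 2.63% being lower, and the 6 receptors had a median log2 fold change of -0.28 beside -0.02 over all genes. Cckar was between 4.21 and 28.9 CPM in KO/NTZ (median 8.99) against 4.53 to 63.7 in KO/PEG (median 23.8). Only 1 of 11 KO/NTZ libraries was below every KO/PEG library, but 9 of 11 were below the KO/PEG median. The log2 fold change was -1.22 (SE 0.34, 95% interval -1.90 to -0.53, adjusted p = 0.0253), or 2.32-fold lower. Chrm3 was between 5.62 and 13.4 CPM in KO/NTZ (median 9.96), and 11 of 11 libraries were below the KO/PEG median of 13.4. It stood at a log2 fold change of -0.45 (SE 0.13, 95% interval -0.72 to -0.18, adjusted p = 0.0381), or 1.36-fold lower.

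Both calls were close to the threshold. Cckar did not pass without the library labelled KO_143_KO_PEG (-1.06, adjusted p = 0.055). Chrm3 did not pass without any 1 of 6 KO/PEG libraries (KO_31_KO_PEG, KO_32_KO_PEG, KO_46_KO_PEG, KO_137_KO_PEG, KO_143_KO_PEG and KO_144_KO_PEG) or 5 KO/NTZ libraries (KO_29_KO_YF, KO_30_KO_YF, KO_36_KO_YF, KO_37_KO_YF and KO_110_KO_YF). Over all 24 libraries left out in turn its log2 fold change lay between -0.50 and -0.38 and its adjusted p between 0.0093 and 0.077. With only KO/NTZ and KO/PEG in the fit, Cckar stayed at -1.21 and Chrm3 at -0.44, but neither passed (adjusted p = 0.155 and 0.181). The animals also carry numbers below 100 or from 100 up, whose meaning the labels do not give. In KO/PEG 6 of 13 libraries and in KO/NTZ 10 of 11 had a number below 100. Within the numbers below 100, Cckar was at 21.2 ± 15.9 CPM (n = 6) in KO/PEG and 12.9 ± 9.15 (n = 10) in KO/NTZ, and Chrm3 at 13.4 ± 5.14 and 9.95 ± 2.62. The log2 fold changes there were -0.69 for Cckar (adjusted p = 0.380) and -0.41 for Chrm3 (adjusted p = 0.313), and neither passed. With the number class as a covariate Cckar was at -1.17 (adjusted p = 0.052) and Chrm3 at -0.49 (adjusted p = 0.0302).

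The chief cell markers summed to between 3119 and 28070 CPM in KO/NTZ and between 2668 and 50531 in KO/PEG, and 0 of the 6 tested passed by edgeR. The log2 fold changes were -1.01 for Pga5, -0.88 for Gif (adjusted p = 0.253) and -0.41 for Anpep. Those of Bhlha15, Pgc and Chia1 were -0.30, -0.26 and 0.13. The chief cell marker Lipf, which was not tested, was at 0 in every KO/NTZ library and at most 0.0395 CPM in KO/PEG. Its maximum was 0.113 CPM in WT/NTZ and 2.24 in WT/PEG, where the mean was 0.204. Of 8 smooth muscle markers 4 were higher with NTZ and 4 did not pass. Their sum was between 2273 and 4956 CPM in KO/NTZ. Of 11 enteric neuron and glia markers 4 were higher and 7 did not pass. In this comparison 5.48% of all genes tested passed in either direction. The part of these cells in the Cckar and Chrm3 values was not tested.

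For the 4 receptors that did not pass in KO mice the intervals bound the size of any NTZ effect. The 95% interval of the log2 fold change was -0.65 to 0.26 for Hrh2, -0.81 to 0.07 for Sstr2, -0.12 to 0.64 for Chrm1 and -0.21 to 0.62 for Adcyap1r1. Hrh2 had a median of 1.94 CPM in KO/NTZ and 2.04 in KO/PEG, far from the 20.8 of WT/PEG. Chrm1 had a median of 20.3 CPM in KO/NTZ and 18.7 in KO/PEG, against 4.31 in WT/PEG. Within the numbers below 100, the estimates of Hrh2, Sstr2 and Adcyap1r1 had the opposite sign, and none passed. Under scaling by total count alone 36.3% of the calls of this comparison were higher in place of 51.9%, and Chrm3 did not pass (-0.54, adjusted p = 0.052).

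In WT mice the drug changed none of the 6 receptors at this threshold (edgeR, 0 of 6, with 0 of 6 also under an unadjusted p of 0.05, and 0 of 6 by DESeq2 and by limma). Of all genes 0.978% passed. Hrh2 ranged from 8.60 to 28.1 CPM in WT/NTZ (median 20.3) against 16.3 to 23.8 in WT/PEG (median 20.8). The log2 fold changes lay between -0.17 for Cckar (95% interval -0.88 to 0.55) and 0.15 for Chrm1 (-0.31 to 0.60). The intervals of Chrm3 (-0.37 to 0.22) and Hrh2 (-0.50 to 0.37) were the narrowest. The library labelled WT_118_WT_YF had the lowest Hrh2, Sstr2 and Cckar of its group, at 8.60, 6.48 and 45.1 CPM.

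The NTZ effect in KO minus that in WT mice was tested directly, and 0 of 6 receptors passed by edgeR, by DESeq2 and by limma, where 0.939% of all genes did. Cckar came nearest at -1.05 (SE 0.49, 95% interval -2.03 to -0.07, unadjusted p = 0.0367, adjusted p = 0.386), the 1 receptor of 6 under an unadjusted p of 0.05. Chrm3 was at -0.37 (SE 0.20, adjusted p = 0.484). The drug effect on Cckar and Chrm3 is thus not shown to differ between genotypes. Under scaling by total count alone 6.75% of the calls of this comparison were higher in place of 24.3%.

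**Figure D3:**
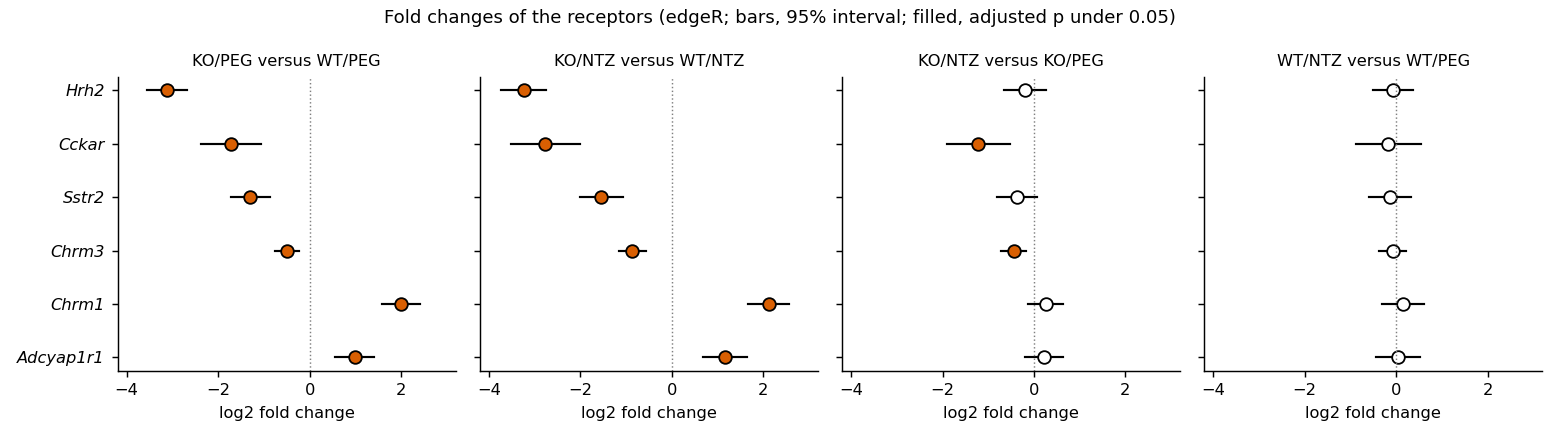
Log2 fold changes of the 6 tested receptors in 4 comparisons, with 95% intervals as bars and filled points where the adjusted p was under 0.05. Both genotype comparisons show 4 receptors lower and 2 higher, and NTZ versus PEG shows 2 filled points in KO and none in WT mice.

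The receptors differed in which transcripts carried the counts. Transcripts of a gene share exons, and reads from these are assigned by estimation, so that transcript values are less certain than gene sums. The rise of Chrm1 lay in transcript Chrm1-201, whose share of the gene's estimated counts was 60.2% in WT/PEG and 68.1% in WT/NTZ, against 87.2% and 88.8% in the KO groups given PEG and NTZ. Chrm1-201 rose by 2.48 on the log2 scale in KO/PEG versus WT/PEG (SE 0.25, adjusted p = 7.92e-11). Chrm1-202 was at 0.43 (SE 0.34, adjusted p = 0.292) and did not pass. The difference between these transcripts was not itself tested.

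Sstr2 showed a like pattern in the other direction. Sstr2-202 held 21.1% of the counts in WT/PEG and 7.48% in KO/PEG, and fell by 2.93 (SE 0.69, adjusted p = 0.00047). Sstr2-203 held 76.8% in WT/PEG and 92.5% in KO/PEG, and fell by 1.05 (SE 0.23, adjusted p = 0.00016). The minor transcripts Sstr2-201, with 43.0 estimated counts over the WT/PEG libraries, and Chrm3-201, with 114, were listed at 0 in all KO libraries. Cckar-201 held between 96.1% and 97.5% of the Cckar counts in each group, Chrm3-202 at least 95.3% of those of Chrm3 and Adcyap1r1-202 at least 98.8% of those of Adcyap1r1.

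**Figure D4:**
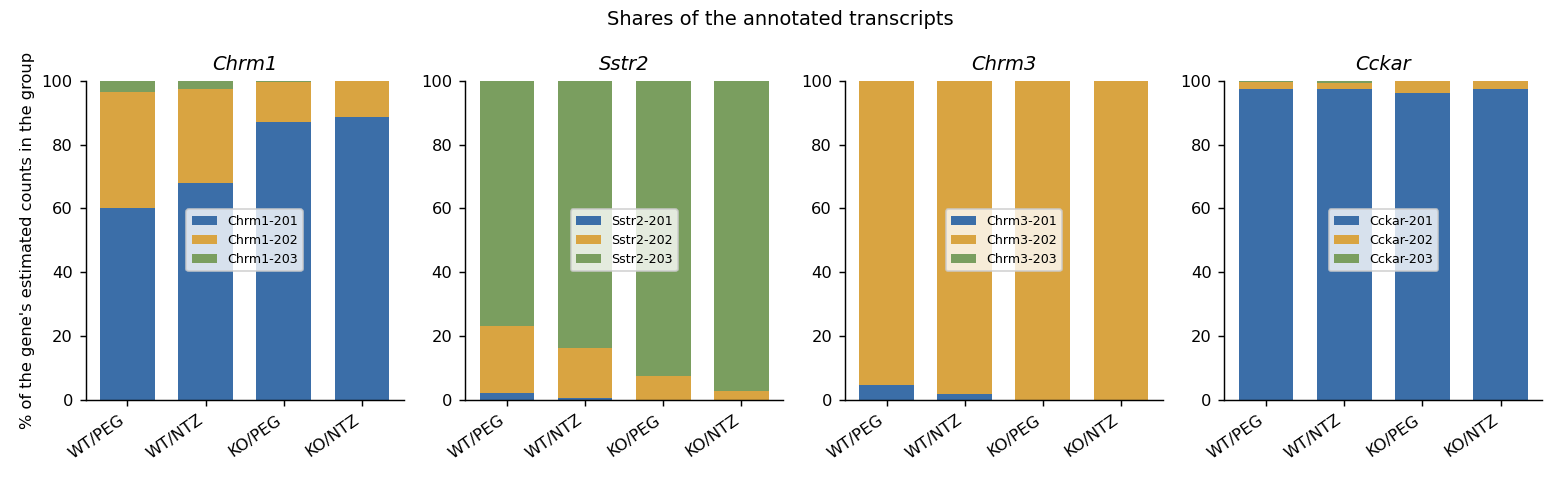
Share of the estimated counts of Chrm1, Sstr2, Chrm3 and Cckar held by each annotated transcript, summed over the libraries of a group. Chrm1-201 grew from 60.2% in WT/PEG to 87.2% in KO/PEG, and Sstr2-202 shrank from 21.1% to 7.48%.

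Among the KO/PEG libraries some of the receptors varied together, and Chrm1 not detectably with any of the others. Correlations of log2 CPM were computed for the 15 pairs of the 6 tested receptors in each KO group, 30 in all, with two-sided permutation tests (100000 permutations) and Benjamini-Hochberg adjustment over the 30. In KO/PEG 8 of 15 pairs passed by Pearson's r and 7 by Spearman's rho, Chrm3 with Cckar by r only. The pairs that passed by neither were the 5 with Chrm1 (r between -0.23 and 0.08, adjusted p between 0.656 and 0.973) and those of Chrm3 with Sstr2 and with Adcyap1r1. Without the 2 libraries farthest from the Chrm1 median, r was -0.47 with Cckar, -0.45 with Sstr2, -0.16 with Chrm3 and 0.44 with Adcyap1r1. In the 7 libraries numbered from 100 up, r lay between -0.64 with Hrh2 and 0.49 with Adcyap1r1. In the 13 KO/PEG libraries Hrh2 and Cckar had a Pearson r of 0.93 (p = 3e-05, adjusted p = 0.00090) and a Spearman rho of 0.90 (p = 0.00012, adjusted p = 0.0011). Without the 2 libraries farthest from the Hrh2 median, r was 0.92. It was 0.91 in the 6 libraries numbered below 100 and 0.95 in the other 7.

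Adcyap1r1 ran against Hrh2, Cckar and Sstr2, but not detectably against Chrm3 (r -0.35, p = 0.234, adjusted p = 0.413, rho -0.40, p = 0.177, adjusted p = 0.304, and r 0.03 without the 2 farthest libraries). With Hrh2 its r was -0.82 (p = 0.00091, adjusted p = 0.0045) and rho -0.74 (p = 0.0049, adjusted p = 0.0210), and r was -0.81 without the 2 farthest, -0.62 below 100 and -0.96 above. With Cckar its r was -0.86 (p = 0.00018, adjusted p = 0.0013) and rho -0.92 (p = 6e-05, adjusted p = 0.00090), and r was -0.87 without the 2 farthest libraries, -0.77 in the numbers below 100 and -0.91 in the others. With Sstr2 its r was -0.89 (p = 0.00012, adjusted p = 0.0013) and rho -0.90 (p = 0.00015, adjusted p = 0.0011), and r was -0.90 without the 2 farthest, -0.91 below 100 and -0.85 above. The libraries labelled KO_52_KO_PEG, KO_111_KO_PEG, KO_143_KO_PEG and KO_144_KO_PEG had the 4 lowest Adcyap1r1 levels, between 2.87 and 3.58 CPM, and the 4 highest Cckar levels, between 48.9 and 63.7 CPM. These points share the tissue composition of each library, whose summed chief cell markers varied between 2668 and 50531 CPM, and its part in the correlations was not tested.

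In the 11 KO/NTZ libraries 2 of 15 pairs passed by Pearson's r, Sstr2 with Cckar and Chrm3 with Sstr2. Hrh2 and Cckar, with the highest r in KO/PEG, had r 0.15 here (p = 0.659, adjusted p = 0.818) and rho 0.29 (p = 0.388, adjusted p = 0.554), with -0.11 in the numbers below 100. Hrh2 and Sstr2 had r 0.19 (p = 0.573, adjusted p = 0.782) and rho 0.21 (p = 0.541, adjusted p = 0.677). The difference in r between the groups was not tested. Sstr2 and Cckar had r 0.84 (p = 0.0012, adjusted p = 0.0052) and rho 0.83 (p = 0.0025, adjusted p = 0.0127). Without the 2 farthest libraries r was 0.61, and in the 10 libraries numbered below 100 it was 0.82. Adcyap1r1 and Cckar had r -0.65 (p = 0.0325, adjusted p = 0.0885) and rho -0.73 (p = 0.0148, adjusted p = 0.0444). This pair passed by rho only, and its r was weaker, at -0.32, without the 2 farthest libraries.

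**Figure D5:**
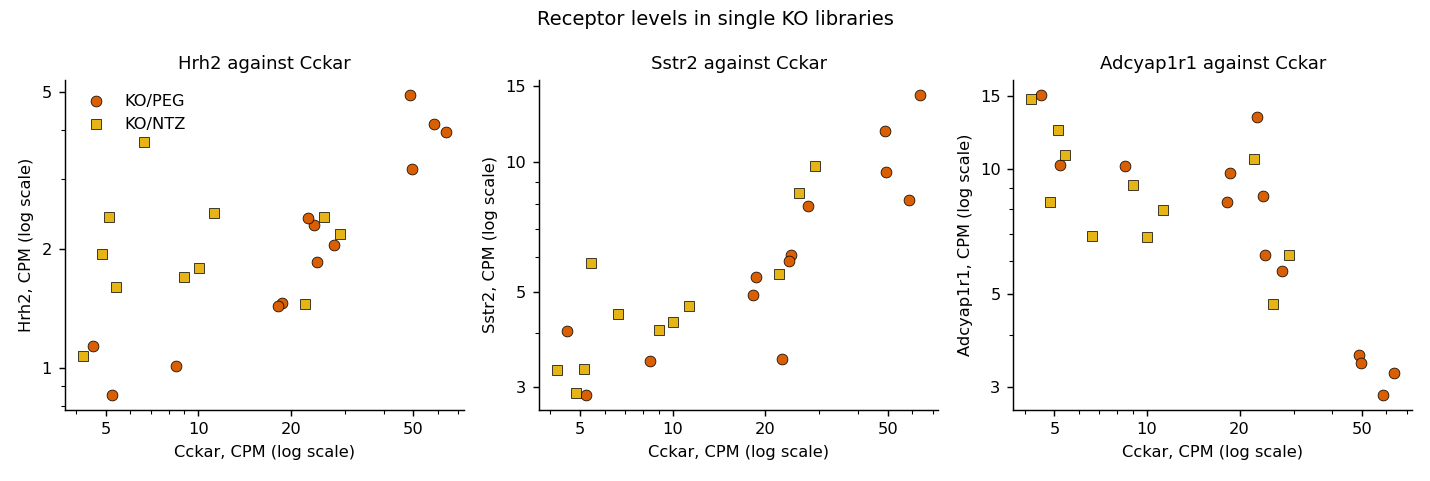
CPM of Hrh2, Sstr2 and Adcyap1r1 against that of Cckar in each KO/PEG (circles) and KO/NTZ (squares) library, all axes logarithmic. In KO/PEG, Hrh2 and Sstr2 were high where Cckar was high, while Adcyap1r1 was low there.

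The genes most like each receptor over the 44 libraries were ranked by Pearson r of log2 CPM among the 15336 genes tested, as a description. The groups differ in most genes, so the same was done with the deviations of each library from its group mean. Hrh2 was nearest to Sec14l4 (r 0.98), Fa2h (0.97) and Kcnj16 (0.97), the last a potassium channel of the parietal cell, and by deviations to Sec14l4 (0.80), Kif1a (0.80) and Fxyd6 (0.72). Cckar was nearest to Gif (0.96), Paip2b (0.95) and Bckdhb (0.94), and by deviations to Nrn1 (0.92), Gif (0.91) and Pnliprp1 (0.88). Gif, the chief cell gene of intrinsic factor in the mouse, was thus among the 3 nearest to Cckar by both measures. Sstr2 was nearest to Pttg1ip (0.96), the mitochondrial isocitrate dehydrogenase Idh2 (0.95) and Bckdhb (0.94), and by deviations to Pttg1ip (0.87), Coq8a (0.87) and Pnliprp1 (0.84).

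Chrm3 was nearest to Ncapd3, Pdgfd and Serinc3 (r between 0.92 and 0.93), and by deviations to Pik3c2g (0.87), Prss23 (0.86) and Ivns1abp (0.85). Chrm1 was nearest to Cthrc1 (0.97), Chad (0.96) and Slc12a8 (0.96), and by deviations to Mxd4 (0.90), AU040320 (0.89) and Fndc5 (0.84). Adcyap1r1 was nearest to Bpifa6 (0.88), Cers5 (0.87) and Spib (0.86), and by deviations to Cdhr2 (0.82), Cadm4 (0.75) and Bpifa6 (0.75). No gene was shared between the nearest genes of Chrm1 and Chrm3. With only 3 genes kept per measure, this does not bear on how alike these receptors are. Cckar and Sstr2 shared Bckdhb by level and Pnliprp1 by deviations.

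Other genes of acid control were read from the same test. Of 12 genes for ligands, 7 could be tested, of which 4 were higher and 2 lower in KO/PEG versus WT/PEG. Of all genes tested 74.0% passed in this comparison, 37.2% higher and 36.8% lower, with a median log2 fold change of -0.01. Hdc, which makes histamine, rose by 1.39 (SE 0.21, adjusted p = 3.04e-07), from 26.5 ± 11.9 CPM (n = 11) in WT/PEG to 69.1 ± 25.4 (n = 13) in KO/PEG. Its receptor gene Hrh2 was lower in the same libraries. Mast cells also make histamine, and 5 of 5 mast cell markers were higher, their sum being between 16.0 and 64.3 CPM in WT/PEG and between 82.4 and 453 in KO/PEG. The part of mast cells in the Hdc value was not tested. Penk, encoding enkephalins, rose by 0.86 (adjusted p = 0.00070), Gal, encoding galanin, by 1.01 (adjusted p = 0.0098) and Ghrl, encoding ghrelin, by 0.42 (adjusted p = 0.0036). Vip, encoding a vasoactive neuropeptide, fell by 1.03 (adjusted p = 0.0026). The median log2 fold change of the 7 was 0.42.

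Of 24 other receptor genes 11 could be tested, and in KO/PEG versus WT/PEG 3 were higher and 8 lower, with a median of -1.10. The prostaglandin E receptor Ptger4 (2.01) and Cckbr (1.60) rose, as did the VIP and PACAP receptor Vipr1 (1.35). Ptger3, of the same family as Ptger4, fell by 2.62, the muscarinic receptor Chrm2 by 2.31, Calcrl by 2.00 and Vipr2 by 1.48 (all adjusted p at most 8.82e-07). Of 40 signalling genes downstream of the receptors 39 could be tested, 8 being higher and 26 lower, with a median of -0.65. Beside both lists, 37.2% of all genes tested were higher and 36.8% lower, with a median of -0.01. The adenylyl cyclase Adcy9 fell by 1.71, the phosphodiesterase Pde3a by 1.40, the protein kinase A subunit Prkar2a by 1.15 and Ezr, encoding the ezrin of the parietal cell canaliculus, by 0.72. The receptor kinase Grk2 (0.95), the arrestin Arrb2 (0.78), Prkar2b (0.47) and the inhibitory G protein subunit Gnai2 (0.47) rose.

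With NTZ in KO mice, 2 of the 7 ligand genes were higher and 1 was lower, with a median of 0.32. Of all genes tested 5.48% passed, 2.63% being lower, with a median of -0.02. Of 7 ECL and neuroendocrine markers, Hdc and Cckbr among them, 5 were lower, and of 5 mast cell markers Tpsb2 was higher. Hdc fell by 1.97 (SE 0.22, adjusted p = 1.14e-07) to 17.5 ± 6.09 CPM (n = 11), Penk rose by 1.04 (adjusted p = 0.0022) and Sst rose by 0.89 (SE 0.27, adjusted p = 0.0374). Sst thus differed between the KO groups while its receptor Sstr2 did not pass. Of the other receptors 1 of 11 passed, the drug target Cckbr, which fell by 0.99 (SE 0.21, adjusted p = 0.0025), with a median over the list of -0.16. Of the signalling genes Adcy5 (0.74), Camk2b (0.68) and Plcb3 (0.21) rose and Adcy9 fell by 0.70, and the median was -0.05. In WT mice none of the ligand, receptor or signalling genes passed by edgeR, where 0.978% of all genes did. Hdc, at -0.75 there (unadjusted p = 0.0026, adjusted p = 0.150), was the only gene of the 3 lists to pass the test of the difference between the drug effects (-1.23, SE 0.31, adjusted p = 0.0398).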

How the data were processed

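The members and gene lists were chosen with earlier results of these data known. Per the labels, RNA of the gastric corpus was made into stranded mRNA libraries. The authors estimated counts per transcript with kallisto 0.42.4 on GRCm38 and deposited these estimated counts for 94080 transcripts without normalization. The paper tested them with Sleuth, which needs resampled estimates not used here. Kallisto splits reads among transcripts that share sequence, which is why gene sums were used.

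Transcripts were paired with GENCODE vM21 genes for 92372 of them. The other 1708 held between 0.329% and 1.30% of a library's counts and were kept as features of their own. Counts were summed per gene, rounded, filtered with filterByExpr (minimum count 10, minimum total 15), and scaled by TMM. The model held a mean for each group over all 44 libraries (edgeR 4.0.16, R 4.3.3). P-values of quasi-likelihood tests received Benjamini-Hochberg adjustment over the 15336 genes tested (threshold 0.05). The SE is the log2 fold change divided by the root of F. Unpaired transcripts are counted among the genes tested. CPM are TMM-scaled, TPM were computed from the annotated transcript lengths, and correlations used log2 CPM with a prior count of 2. Genes of the acid control lists were named by a fixed rule. In KO/PEG versus WT/PEG these were up to 4 per list with the smallest p in each direction among those that passed. In the NTZ comparisons they were up to 6 per list that passed. The 3 genes most correlated with each member were also named. Atp4b, Adcyap1 and single genes of the cell type marker lists were named outside this rule. Python 3.11.15 and matplotlib 3.10.9 made the figures.

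Depth was between 6065084 and 21945124 counts per library. The alternatives were other scalings, no filter, only the groups compared, DESeq2 1.42.0, limma-trend (limma 3.58.1), both WT/PEG libraries numbered 172 summed, the libraries numbered 110 left out, the animal number class, the largest transcript of each gene, and, chosen after seeing the data, each library left out in turn. The tests were tried on simulated data. The numbers 172 and 110 each mark more than one library. The pair numbered 172 differed with a chi-square of 17.4 per degree of freedom, rank 11 of 55 WT/PEG pairs, and was kept as separate samples. The labels give 13 KO/PEG libraries, more than the mice the paper describes, and all were used. Where libraries share an animal, p-values are too small.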

Additional observations from a re-analysis of the deposited data

How the results depend on the processing

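In KO/PEG versus WT/PEG and KO/NTZ versus WT/NTZ the 6 tested receptors kept their direction and their calls under the 11 alternatives, with the exception of Chrm3 in the former under library size alone (-0.17, adjusted p = 0.367), and 6 passed without each library in turn. In KO/NTZ versus KO/PEG, 1 receptor passed in place of 2 under library size alone, without the filter, without the libraries numbered 110, with the number class as covariate and with the largest transcript, and 0 with only the groups compared (Cckar -1.21, adjusted p = 0.155, and Chrm3 -0.44, adjusted p = 0.181) or within 1 number class (-0.69 and -0.41). Without each library in turn between 0 and 2 passed. The genes passing in that comparison, 840 in the reported test, were 257 with only the groups compared, 1351 with the class as covariate, 89 within the class and 372 by the largest transcript. In WT/NTZ versus WT/PEG they were 150, and 0 with only these groups, 2 by limma, 276 with the covariate, 786 within the class and 45 by the largest transcript. For the difference between the drug effects they were 274 by DESeq2, 54 by limma and 54 by the largest transcript. Signs changed only for values that did not pass. Within the class these were Hrh2 (0.19), Sstr2 (0.054) and Adcyap1r1 (-0.22) in KO/NTZ versus KO/PEG and Chrm1 (-0.19) in WT/NTZ versus WT/PEG. There Adcyap1r1 was at -0.035 with the covariate and Sstr2 at 0.014 by the largest transcript. For the difference between the drug effects Hrh2 was at 0.061 by limma and Chrm1 at -0.040 by the largest transcript. The cause of these changes was not tested. The fits restricted to a class or to the groups compared also held fewer libraries. The difference between the drug effects needs all groups and was not fitted within a class or with only the groups compared. No paired analysis was possible because the groups compared share at most the number 110. Hrh1 and Sstr1, at or near the floor of detection, allow no firm statement.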
